A study of Mus musculus with 128 samples.

Results

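Single wildtype mouse embryos at the 4-cell stage were compared with single wildtype embryos at the 8-cell stage, across all genes of the deposited count table. The members are the 32 libraries that carry the wildtype label at these stages, 16 a stage, of 128 libraries in the series. They were chosen by their labels alone, and no measured value entered the choice. The 4-cell embryos were taken at 2.5 days and the 8-cell embryos at 3.5 days post fertilisation, and all embryos are of strain C57BL/6. Their genotype is WT (m+/p-) for Kdm4a, a histone H3 lysine demethylase. The oocytes were wildtype and the sperm came from Kdm4a knockout males, so each embryo of both stages carries a functional maternal copy and a knockout paternal allele. Knockout embryos of the same stages, made from knockout oocytes and the same kind of sperm, and wildtype MII oocytes and 2-cell embryos serve below as references. The zona pellucida had been removed, and each embryo was amplified as polyA RNA in its own tube.

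At the 8-cell stage the blastomeres of a mouse embryo flatten against each other in compaction and set up an apical and a basolateral side. Cells that later divide into the interior keep a pluripotent state, while outer cells with an apical side turn towards trophectoderm, the first lineage choice. E-cadherin carries the adhesion, actomyosin and the Par proteins carry polarity, and the Hippo kinases restrain Yap1 and Wwtr1, partners of Tead4, in cells that lack an apical side. Messages laid down by the oocyte are largely removed by then, and the embryo's own genome supplies the rest.

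The libraries held 1691764 to 2563727 counts at 4 cells (median 1990190) and 1534786 to 3089847 at 8 cells (median 2087145). Levels are counts in every 1000000 of the library total (CPM) and are relative within a library. A whole embryo is 1 library, so a message in fewer cells and less of it per cell cannot be told apart. No label names the mothers or says how embryos were spread over collections, so p-values measure the spread between these embryos, and stage and collection cannot be told apart. Gene variation between embryos was larger at 4 cells, with a biological coefficient of variation of 53.3%, than at 8 cells, with 40.5%. The first principal component, 28.1% of the variance, put all 4-cell libraries on 1 side and all 8-cell libraries on the other. The 4-cell replicates 11, 3 and 2 had the lowest median Spearman correlations to the others of their stage, 0.804, 0.827 and 0.843. The next lowest was 0.850, in replicate 16, and the highest 0.886. The cut at these 3 libraries was made after seeing the data. Genes named by the selection rules given below are given in both forms where their fold change moved by over 1.5 times without these libraries. Other genes were not checked for such a move.

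**Figure D1:**
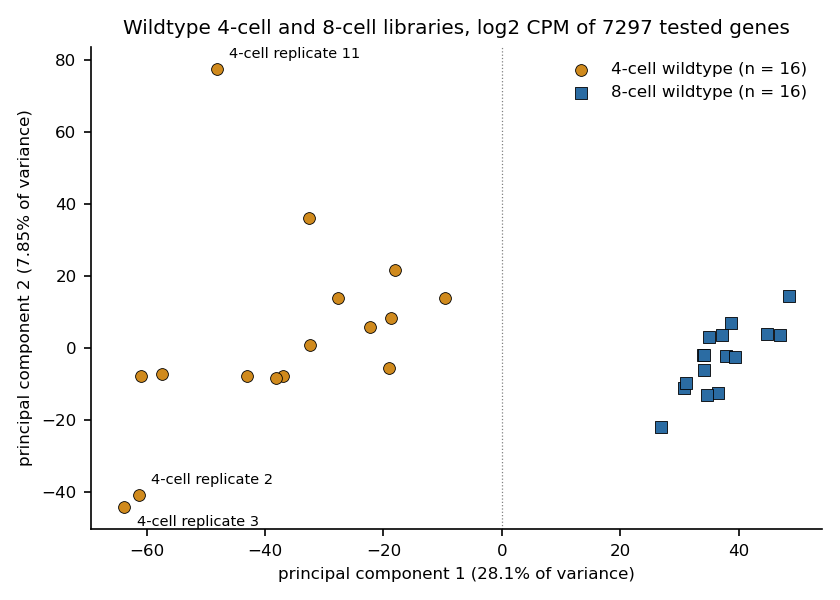
Each point is 1 library on the first (x) and second (y) principal component of log2 CPM over 7297 genes, with the share of variance on each axis. The 4-cell libraries lie between -63.8 and -9.61 on the first component and the 8-cell libraries between 26.9 and 48.4, and 4-cell replicates 2, 3 and 11 lie farthest out on the second.

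Of the embryo's defining markers, Nanog, Cdh1 and Tead4 were present in both stages. Pou5f1, the core pluripotency factor, stood at 0, 0 and 3.52 CPM at 4 cells and at 2.02, 7.32 and 13.8 CPM at 8 cells. Cdx2, the trophectoderm factor, had counts in 1 4-cell library and in no 8-cell library, and Krt8 did not pass 1.56 CPM in any library. How far reads shared with other loci affect these low levels was not tested. Markers of cells that could cling to an embryo were low: 10 of 22 cumulus genes, 4 of 11 blood genes and 5 of 8 sperm genes were at 0 in all 32 libraries. Summed levels reached 1.18 to 14 CPM at 4 cells and 2.59 to 10.1 CPM at 8 cells for cumulus genes. Blood genes summed to 1.73 to 78.7 and 2.78 to 35.3 CPM, mostly from the globin genes Hba-a1 and Hba-a2, with Hbb-bs, Hbb-bt, Ptprc and Tyrobp at 0. Sperm genes summed to at most 2.02 and 1.30 CPM. The part of these genes in the stage differences was not tested.

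The change from 4 to 8 cells was tested in 7297 genes, with a gene called when the edgeR quasi-likelihood test gave a Benjamini-Hochberg adjusted p under 0.05 and the level differed at least 2-fold (1 on the log2 scale). By this rule 653 genes (8.95%) were higher and 825 (11.3%) were lower at 8 cells. These shares over all genes are the reference for the list counts below. The lists were chosen with earlier results of these data known, so their counts beside these shares are descriptions and no independent evidence. In 56 genes (0.767%) every 8-cell library lay above every 4-cell library, and in 49 (0.672%) every one lay below. The median log2 fold change over all tested genes was -0.03. With library totals in place of TMM factors it was -0.14, so medians of gene groups near 0 have no fixed sign. The log2 fold changes had a Spearman correlation across 6458 genes of 0.0749 with the GC content and -0.189 with the length of the longest annotated transcript. Genes called higher had a median length of 2899 bases and genes called lower 3758 bases (3337 over all tested), and the part of length in the calls was not tested.

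**Figure D2:**
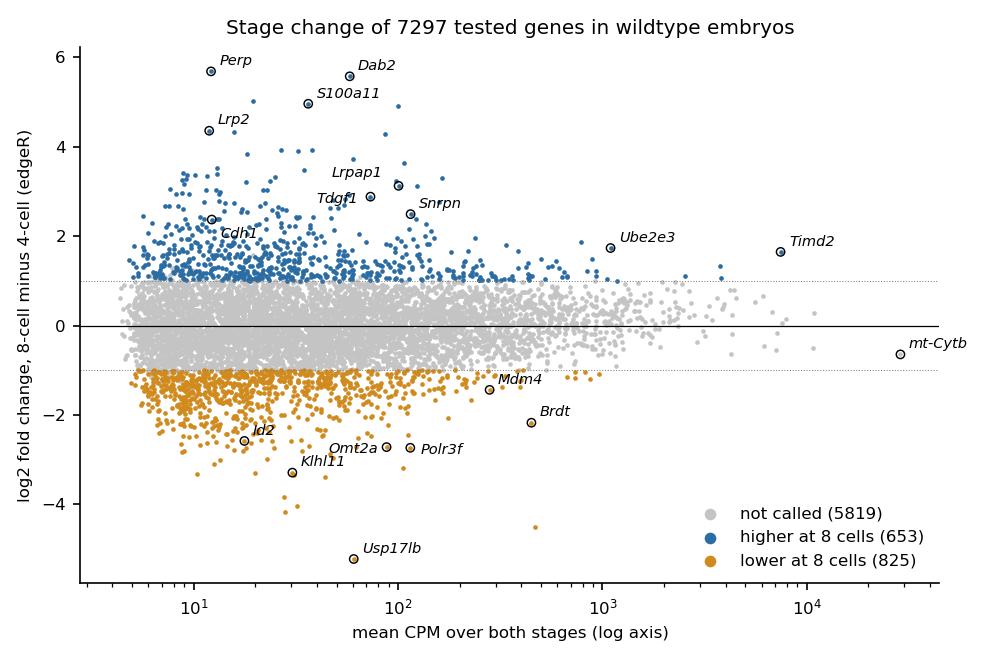
Each point is 1 of 7297 tested genes, with its mean CPM over both stages on a log axis (x) and its log2 fold change, 8-cell minus 4-cell, from edgeR (y). Blue marks the 653 genes called higher, orange the 825 called lower, grey the rest, and dotted lines lie at a log2 fold change of 1 and -1.

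The 12 genes with the largest rise, among called genes that averaged 50 CPM or more in 1 of the stages, included membrane, endocytic and cytoskeletal proteins. In what follows levels are given as the lowest, the median and the highest CPM of the 16 libraries of a stage, and other changes, in brackets or after "rose by", as log2 fold changes ± SE. S100a11, a calcium-binding protein that associates with annexins (chr3:93520488-93526287), stood at 0, 1.41 and 12.9 CPM at 4 cells and at 24.1, 70.0 and 109 CPM at 8 cells. No 8-cell library overlapped the 4-cell range (log2 fold change 4.96 ± 0.45, SE, adjusted p = 1.17e-10). Ly6a, a GPI-anchored surface protein also called Sca-1, stood at 0, 5.86 and 28.1 CPM at 4 cells and at 47.9, 152 and 289 CPM at 8 cells, again without overlap (log2 fold change 4.29 ± 0.46, SE, adjusted p = 3.75e-09). Tpm4, a tropomyosin that coats actin filaments, stood at 0, 2.78 and 40.1 CPM at 4 cells and at 48.9, 98.5 and 183 CPM at 8 cells, and its stages did not overlap either (log2 fold change 3.73 ± 0.53, SE, adjusted p = 6.56e-07). Dab2 and Lrpap1, described next, belong to the same 12. The others were Smpdl3a (3.93 ± 0.55), a phosphodiesterase, Slc35g1 (3.91 ± 0.50), a membrane transporter, Vnn1 (3.63 ± 0.51), a pantetheinase on the cell surface, and Rragd (3.48 ± 0.41), a Rag GTPase that recruits mTORC1 to lysosomes. Dynap (3.29 ± 0.38), Prl3b1 (3.23 ± 0.48), of the placental prolactin family, and Idh1 (3.11 ± 0.38), the cytosolic isocitrate dehydrogenase, completed them. Smpdl3a, Vnn1 and Prl3b1 overlapped between stages and the other 9 did not. Over all tested genes 0.767% lay above without overlap, and the choice of these 12 by fold change in the same libraries favours such genes.

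Lrp2, Lrpap1 and Dab2 were each called higher, and are set side by side after their values were seen because their proteins act in 1 uptake route. Lrp2 codes for megalin, a giant receptor that takes up proteins and sterol carriers from outside the cell, Lrpap1 for the chaperone that escorts it through the secretory route, and Dab2 for the adaptor that links it to clathrin. Lrp2 (chr2:69424340-69586065) stood at 0, 0.250 and 5.36 CPM at 4 cells and at 3.39, 21.1 and 67.0 CPM at 8 cells. It had no counts in 8 of 16 4-cell libraries, and 14 of 16 8-cell libraries exceeded them all (log2 fold change 4.36 ± 0.54, SE, adjusted p = 4.72e-08). Lrpap1 (chr5:35091501-35105766) stood at 5.17, 17.4 and 64.5 CPM at 4 cells and at 67.6, 185 and 359 CPM at 8 cells, without overlap (log2 fold change 3.12 ± 0.29, SE, adjusted p = 1.83e-10). Dab2 (chr15:6299788-6440712) stood at 0, 1.50 and 10.1 CPM at 4 cells and at 27.4, 112 and 215 CPM at 8 cells, also without overlap (log2 fold change 5.57 ± 0.44, SE, adjusted p = 9.46e-12). The co-receptor Cubn did not enter the test, with medians of 0 and 1.30 CPM, and its partner Amn had counts in 1 of the 32 libraries. The upstream 250 bases of these 3 promoters are shown because all 3 genes rose in this step. In the step before, from 2 to 4 cells, their log2 changes were -0.64 for Lrp2, 1.98 for Lrpap1 and -6.52 for Dab2. The sequences come from RefSeq on GRCm38.p6, the assembly of mm10, and are written 5′ to 3′ on the strand of the gene. Capitals mark matches to GCCNNNGGC, a palindromic motif bound by AP-2 factors such as Tfap2c, which reads the same on both strands.

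Lrp2 (chr2:69586030-69586279, minus strand): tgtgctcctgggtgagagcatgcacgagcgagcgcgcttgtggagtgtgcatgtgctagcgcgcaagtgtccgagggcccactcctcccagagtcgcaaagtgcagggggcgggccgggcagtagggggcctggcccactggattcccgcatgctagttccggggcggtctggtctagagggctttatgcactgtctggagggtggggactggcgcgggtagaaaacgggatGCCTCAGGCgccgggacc

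Lrpap1 (chr5:35105700-35105949, minus strand): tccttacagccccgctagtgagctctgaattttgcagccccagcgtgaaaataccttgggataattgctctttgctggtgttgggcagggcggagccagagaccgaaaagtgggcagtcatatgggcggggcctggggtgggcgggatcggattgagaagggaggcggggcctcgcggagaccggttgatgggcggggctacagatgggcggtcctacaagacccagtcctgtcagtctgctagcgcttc

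Dab2, downstream start (chr15:6386498-6386747, plus strand): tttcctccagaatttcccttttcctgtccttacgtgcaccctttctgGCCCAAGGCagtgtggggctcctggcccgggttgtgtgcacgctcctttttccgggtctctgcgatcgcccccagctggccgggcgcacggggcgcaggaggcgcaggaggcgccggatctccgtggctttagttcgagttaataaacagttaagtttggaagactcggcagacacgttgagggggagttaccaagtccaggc

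Lrp2 and the downstream start of Dab2 each held 1 match in this window and Lrpap1 none. The windows end at RefSeq starts, while the gene positions above are from GENCODE. The Lrp2 and Lrpap1 windows therefore reach into those gene positions, and the Lrp2 match lies in that overlap. The downstream start of Dab2 lies within the position given for Dab2. The upstream start of Dab2, not shown, held neither motif. The motif was in 13.7% of all 32851 promoter windows of this length, in 20.2% of those of tested genes, in 18.4% of 602 windows of genes called higher and in 19.5% of 697 windows of genes called lower. GGAATG, bound by Tead factors, was searched on both strands as GGAATG and CATTCC and was in none of the 3 windows. It was in 12.6% of all windows, 9.56% of those of tested genes, 12.6% of those called higher and 8.46% of those called lower. These shares are descriptions, and 1031 of 1478 called genes had a window.

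Cell adhesion genes were called in both directions, at shares not far from those over all genes (8.95% higher and 11.3% lower). Of 24 genes listed for cell-cell adhesion and compaction, 18 were tested, 3 rose and 2 fell, with a median log2 fold change of 0.03. Cdh1, E-cadherin, the adhesion molecule of compaction (chr8:106603351-106670246), stood at 0, 3.45 and 17 CPM at 4 cells and at 9.99, 19.1 and 36.3 CPM at 8 cells. All 8-cell libraries lay above the 4-cell median and 10 of 16 above the highest 4-cell library (log2 fold change 2.37 ± 0.34, SE, adjusted p = 7.08e-07). Rap1a, a small GTPase that strengthens cadherin and integrin contacts, stood at 78.8, 119 and 173 CPM at 4 cells and at 202, 288 and 445 CPM at 8 cells, with no overlap (log2 fold change 1.43 ± 0.14, SE, adjusted p = 5.14e-10). Myh10, a non-muscle myosin II heavy chain, rose by 1.31 ± 0.29. Rock1, the kinase that activates myosin II, fell from a median of 189.7 to 80.3 CPM (log2 fold change -1.38 ± 0.22, SE, adjusted p = 5.1e-06), and Myo10, an unconventional myosin of filopodia, fell from 11.4 to 4.15 CPM (log2 fold change -1.56 ± 0.28, SE, adjusted p = 2.46e-05). In oocytes and at 2 cells Rock1 had medians of 951 and 657 CPM, and Myo10 of 56.2 and 83.1 CPM. The catenins differed less: Ctnna1 had a log2 fold change of 0.70, Ctnnb1 of -0.33 and Ctnnd1 of -0.09, none of them called.

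Of 26 listed polarity genes 10 were tested, 0 rose and 1 fell (8.95% and 11.3% over all genes), with a median of 0.17. The gene that fell was Rdx, radixin, which ties actin to the apical membrane, at 21, 37.8 and 114 CPM at 4 cells and at 8.79, 18.3 and 48.2 CPM at 8 cells. The ranges overlapped, with 9 of 16 8-cell libraries under the lowest 4-cell one (log2 fold change -1.08 ± 0.27, SE, adjusted p = 0.00112). Most of the loss of Rdx came earlier, with medians of 12760 CPM in oocytes and 555 CPM at 2 cells. Without 4-cell replicates 2, 3 and 11 no polarity gene was called. The GTPase Cdc42, which activates the Par complex, had medians of 1096 and 1293 CPM and a log2 fold change of 0.38, under the 2-fold limit. The atypical protein kinase C gene Prkci had medians of 12 and 6.52 CPM (log2 fold change -0.84 ± 0.42, SE, adjusted p = 0.0916). Pard6b, whose protein joins that kinase in the Par complex, was too low to test, with medians of 0 and 0.692 CPM.

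Tight junction scaffolds and membrane proteins were among the genes that rose. Of 29 genes listed for junctions and fluid transport 9 were tested, 5 rose and 0 fell, with a median log2 fold change of 1.01, against 8.95% called higher over all genes. Tjp1 codes for ZO-1, the scaffold under tight junctions (chr7:65296165-65527781), and stood at 3.0, 15.2 and 45.0 CPM at 4 cells and at 26.1, 46.0 and 92.1 CPM at 8 cells. The ranges overlapped, with 8 of 16 8-cell libraries above all 4-cell ones (log2 fold change 1.44 ± 0.23, SE, adjusted p = 4.17e-06). F11r, the junctional adhesion molecule JAM-A, stood at 4.52, 48.2 and 159 CPM at 4 cells and at 68.3, 142 and 266 CPM at 8 cells, with overlapping ranges (log2 fold change 1.32 ± 0.27, SE, adjusted p = 0.00015). Ocln, occludin, rose by 1.07 ± 0.45 and Aqp11, an aquaporin, by 1.01 ± 0.26. With library totals in place of TMM factors, and also without 4-cell replicates 2, 3 and 11, 3 members instead of 5 were called. Among members too low to test, the claudin gene Cldn6 stood at 0, 0 and 4.22 CPM at 4 cells and at 2.43, 10.5 and 25 CPM at 8 cells and the water channel gene Aqp3 at 0, 0 and 4.69 CPM at 4 cells and at 0.375, 6.70 and 24.3 CPM at 8 cells. In both, 8-cell libraries mostly exceeded all 4-cell libraries, 15 of 16 for Cldn6 and 13 of 16 for Aqp3.

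Hippo pathway genes rose more often than they fell. Of 24 listed genes 15 were tested, 5 rose and 1 fell (8.95% and 11.3% over all genes), with a median of 0.22. Amotl2, an angiomotin-like protein that holds Yap1 at junctions and helps activate Lats kinases (chr9:102716672-102733418), stood at 0, 0.920 and 11.1 CPM at 4 cells and at 4.12, 22.1 and 43.4 CPM at 8 cells. It lay above the 4-cell median in every 8-cell library and above all 4-cell libraries in 11 of 16 (log2 fold change 3.03 ± 0.54, SE, adjusted p = 2.08e-05). Stk4, also called Mst1, is an upstream kinase of the pathway and stood at 6.99, 33.5 and 124 CPM at 4 cells and at 81.6, 143 and 229 CPM at 8 cells, with 11 of 16 8-cell libraries above all 4-cell ones (log2 fold change 1.65 ± 0.25, SE, adjusted p = 2.17e-06). Its paralogue Stk3 rose by 1.09 ± 0.46 and the downstream kinase Lats2 by 1.32 ± 0.26. Sav1, the scaffold of the Stk3 and Stk4 kinases, went the other way, at 3.57, 12 and 28.5 CPM at 4 cells and at 1.01, 3.38 and 7.82 CPM at 8 cells (log2 fold change -1.83 ± 0.31, SE, adjusted p = 1.13e-05), and its ranges overlapped in 7 of 16 8-cell libraries. Among the effectors, Wwtr1, also called Taz, stood at 2.07, 5.50 and 27.4 CPM at 4 cells and at 10.4, 15.4 and 62.4 CPM at 8 cells and rose (log2 fold change 1.70 ± 0.30, SE, adjusted p = 2.2e-05) with overlapping ranges. Yap1 had medians of 43.3 and 36.1 CPM and was not called (log2 fold change -0.11 ± 0.16, SE, adjusted p = 0.601).

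Trophectoderm factors were sparse. Of 28 listed genes 7 were tested, 0 rose and 1 fell (8.95% and 11.3% over all genes), with a median of 0.28. Id2, an inhibitor of basic helix-loop-helix factors that marks outer cells later on, stood at 6.33, 18.2 and 99.6 CPM at 4 cells and at 0, 4.45 and 11.4 CPM at 8 cells, and 12 of 16 8-cell libraries lay under all 4-cell ones (log2 fold change -2.58 ± 0.41, SE, adjusted p = 5.06e-06). Without 4-cell replicates 2, 3 and 11 its log2 fold change was -1.98 (edgeR adjusted p = 8.43e-05). Tead4, the DNA-binding partner of Yap1, had medians of 41.7 and 58.1 CPM and a log2 fold change of 0.45, below the limit for a call. Klf5 had a log2 fold change of 0.40 and Tfap2c of -0.20, and neither was called. Gata3, Eomes and Elf5 were not tested, with medians at or under 0.789 CPM in both stages.

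Pluripotency genes made up a larger group. Of 34 listed genes 19 were tested, 7 rose and 0 fell (8.95% and 11.3% over all genes), with a median of 0.41. Tdgf1 codes for Cripto, the co-receptor of Nodal (chr9:110939603-110946158), and stood at 4.50, 15.8 and 55.7 CPM at 4 cells and at 72.1, 119.7 and 224 CPM at 8 cells, without overlap (log2 fold change 2.88 ± 0.27, SE, adjusted p = 4.32e-10). Nanog, a homeobox factor of the inner cells and later epiblast (chr6:122707489-122714633), stood at 1.13, 10.1 and 32.1 CPM at 4 cells and at 4.53, 32.4 and 62.9 CPM at 8 cells. Its ranges overlapped in 7 of 16 8-cell libraries (log2 fold change 1.6 ± 0.31, SE, adjusted p = 8.24e-05), and 90.6% of its values were not whole numbers, so some of its reads may be shared with other loci. Dppa5a, a KH-domain protein, stood at 29.4, 537 and 1016 CPM at 4 cells and at 824, 1316 and 1807 CPM at 8 cells (log2 fold change 1.23 ± 0.23, SE, adjusted p = 4.35e-05), and Zfp42, also called Rex1, at 0.50, 15.6 and 39.6 CPM at 4 cells and at 25.5, 37.4 and 59.3 CPM at 8 cells (log2 fold change 1.40 ± 0.27, SE, adjusted p = 5.89e-05). Both had some overlap. The other 3 that rose were Prdm14 (2.55 ± 0.52), Tfcp2l1 (1.93 ± 0.43) and Lin28a (1.70 ± 0.42), the first 2 DNA-binding factors of naive pluripotency and the last an RNA-binding protein. Pou5f1 was too low to test, but 14 of 16 8-cell libraries lay above all 4-cell libraries. Sox2 had medians of 0 and 0 CPM. Klf17 (-0.74) and Esrrb (0.21) were not called.

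Genes of primitive endoderm and FGF signalling act in the second lineage choice inside the blastocyst. They gave 4 rises and 0 falls among 13 tested of 35 listed (8.95% and 11.3% over all genes), with a median of 0.05. Besides Dab2, the receptor gene Fgfr2 stood at 0, 5.86 and 30.8 CPM at 4 cells and at 21.4, 40.2 and 77.3 CPM at 8 cells, with 14 of 16 8-cell libraries above all 4-cell ones (log2 fold change 2.51 ± 0.39, SE, adjusted p = 2.97e-06). Gata6, the primitive endoderm transcription factor, stood at 0, 5.62 and 22.3 CPM at 4 cells and at 6.77, 16.9 and 67.6 CPM at 8 cells (log2 fold change 1.98 ± 0.42, SE, adjusted p = 0.000225), with 7 of 16 above. Map2k1, the kinase MEK1, stood at 18.8, 49.8 and 93.5 CPM at 4 cells and at 55.7, 108 and 161 CPM at 8 cells (log2 fold change 1.09 ± 0.18, SE, adjusted p = 8.25e-06), with 12 of 16 above, and it lost its call without 4-cell replicates 2, 3 and 11. The ligand gene Fgf4 had medians of 17.9 and 9.36 CPM and a log2 fold change of -0.92, which passed the p threshold but not the fold limit. Gata4 (-0.59) was not called, and Sox17 had no counts in any of the 32 libraries.

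Actin cytoskeleton genes rose in 9 of 32 tested members of 51 listed and fell in 2 (8.95% and 11.3% over all genes). Their median was 0.55. Beside S100a11 and Tpm4, Tpm1, another tropomyosin, stood at 0, 4.79 and 8.50 CPM at 4 cells and at 17.6, 42.3 and 81.5 CPM at 8 cells, without overlap (log2 fold change 3.24 ± 0.32, SE, adjusted p = 1.06e-09). Lasp1, an actin-binding protein of focal contacts, stood at 0, 0.711 and 8.16 CPM at 4 cells and at 4.85, 15.3 and 25.5 CPM at 8 cells (log2 fold change 3.28 ± 0.44, SE, adjusted p = 2.75e-07) and Capza2, a subunit of the barbed-end capping protein, at 82.9, 346 and 579.9 CPM at 4 cells and at 499.7, 870.5 and 1181 CPM at 8 cells (log2 fold change 1.45 ± 0.18, SE, adjusted p = 4.81e-08). In both, at least 14 of 16 8-cell libraries lay above all 4-cell ones. The 2 that fell were Tmsb4x (-2.10 ± 0.51), which sequesters actin monomers, and Arpc1a (-1.05 ± 0.19), a subunit of the Arp2/3 complex. Without 4-cell replicates 2, 3 and 11 neither of these falls was called. The actin gene Actb itself had medians of 37.4 and 61.2 CPM and a log2 fold change of 0.83, under the fold limit.

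Endocytosis and lysosome genes rose in 11 of 37 tested members of 43 listed and fell in 0 (8.95% and 11.3% over all genes). Their median was 0.59. Beside Lrp2, the genes that rose code for lysosomal enzymes, their cofactors and membrane proteins. Grn, progranulin, stood at 1.69, 9.30 and 23.4 CPM at 4 cells and at 17.2, 50.7 and 116 CPM at 8 cells, with 15 of 16 8-cell libraries above all 4-cell ones (log2 fold change 2.44 ± 0.31, SE, adjusted p = 8.24e-08). Lamp1, the major lysosomal membrane glycoprotein, stood at 20.9, 69.8 and 121 CPM at 4 cells and at 85.1, 189 and 277 CPM at 8 cells (log2 fold change 1.51 ± 0.19, SE, adjusted p = 9.49e-08). Psap, the precursor of the saposins (1.78 ± 0.31), Ctsd, cathepsin D (1.64 ± 0.28), and Scarb2, a receptor that sorts an enzyme to lysosomes (1.6 ± 0.43), rose as well.

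Sterol synthesis was divided. Of 38 listed lipid genes 17 were tested, 4 rose and 3 fell (8.95% and 11.3% over all genes). Msmo1, a sterol methyl oxidase, stood at 1.18, 38.6 and 125 CPM at 4 cells and at 139, 287 and 395 CPM at 8 cells, without overlap (log2 fold change 2.75 ± 0.31, SE, adjusted p = 8.76e-09). Fdft1, squalene synthase (1.09 ± 0.14), Ebp, a sterol isomerase (1.59 ± 0.31), and the fatty acid elongase Elovl5 (1.14 ± 0.41) rose too. The falls were Hsd17b7 (-1.87 ± 0.39), which acts in the same route, Insig1 (-1.57 ± 0.39), a brake on sterol synthesis, and the desaturase Scd1 (-1.19 ± 0.25).

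Ribosomal protein genes mostly lay higher at 8 cells, by less than the fold limit. All but 1 of 82 listed genes were tested and 79 of 81 had a log2 fold change above 0, with a median of 0.46, but only 2, Rpl3 (1.08 ± 0.20) and Rps4x (1.0 ± 0.18), were called. By adjusted p alone 64 were higher and 0 lower, against 23.3% and 25.1% over all genes. Their share of all counts was 3.57% ± 0.545 (SD, n = 16) at 4 cells and 4.88% ± 0.499 (n = 16) at 8 cells. A 2-sided permutation test with 100000 resamples gave a p of 2e-05 before adjustment, the smallest it can give, and an adjusted p of 8e-05. In this share 13 of 16 8-cell libraries lay above all 4-cell ones. Rps4x lost its call with DESeq2 or RLE factors, and without 4-cell replicates 2, 3 and 11 neither gene was called. Ribosome biogenesis genes did not move the same way: of 68 tested 29 were lower and 4 higher by adjusted p alone, 1 was called lower (Polr1e, a subunit of RNA polymerase I, -1.26 ± 0.16) and 0 higher, and the median was -0.23.

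Nuclear and mitochondrially encoded genes of the respiratory chain had medians of opposite sign. Of 70 tested nuclear genes (77 listed) 13 rose and 0 fell (8.95% and 11.3% over all genes). In 65 of them the log2 fold change was above 0, and the median was 0.52. Uqcrb, a subunit of complex III, stood at 82.7, 261 and 405 CPM at 4 cells and at 433, 587 and 961 CPM at 8 cells, without overlap (log2 fold change 1.41 ± 0.17, SE, adjusted p = 3.43e-08). Cox6c of complex IV (1.22 ± 0.17), Ndufa9 of complex I (1.09 ± 0.15) and Cyc1, cytochrome c1 (1.25 ± 0.19), rose as well. All 13 mitochondrially encoded genes had a log2 fold change below 0, with a median of -0.41. None was called with the fold limit, and 8 were lower by adjusted p alone. The most abundant, mt-Cytb, stood at 25279, 36441 and 46199 CPM at 4 cells and at 13051, 21369 and 32026 CPM at 8 cells, and 14 of 16 8-cell libraries lay under all 4-cell ones (log2 fold change -0.65 ± 0.11, SE, adjusted p = 1.75e-05). Mitochondrial genes made up 8.82% ± 1.59 (SD, n = 16) of counts at 4 cells and 6.26% ± 1.25 (n = 16) at 8 cells (permutation test, adjusted p = 0.00012). The same test did not separate the stages in the share of the 50 most abundant genes, 22.8% and 23.7% (adjusted p = 0.153), or in the genes detected at 1000000 counts, 11994 and 11838 (adjusted p = 0.365). The part of the mitochondrial share in the other changes was not tested.

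Proteasome genes rose in 8 of 38 tested members and fell in 1 (8.95% and 11.3% over all genes), with a median of 0.43. Psme1, a subunit of the 11S activator, stood at 0, 7.42 and 28.7 CPM at 4 cells and at 19.8, 52.5 and 89.3 CPM at 8 cells, and 14 of 16 8-cell libraries lay above all 4-cell ones (log2 fold change 2.40 ± 0.34, SE, adjusted p = 6.02e-07). Psme2, its partner subunit, was the gene that fell (-1.52 ± 0.38). The ATPase subunit gene Psmc4 (1.33 ± 0.14), the core subunit gene Psma1 (1.10 ± 0.15) and the assembly chaperone gene Psmg1 (1.46 ± 0.21) rose. With library totals 4 instead of 8 rose.

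**Figure D3:**
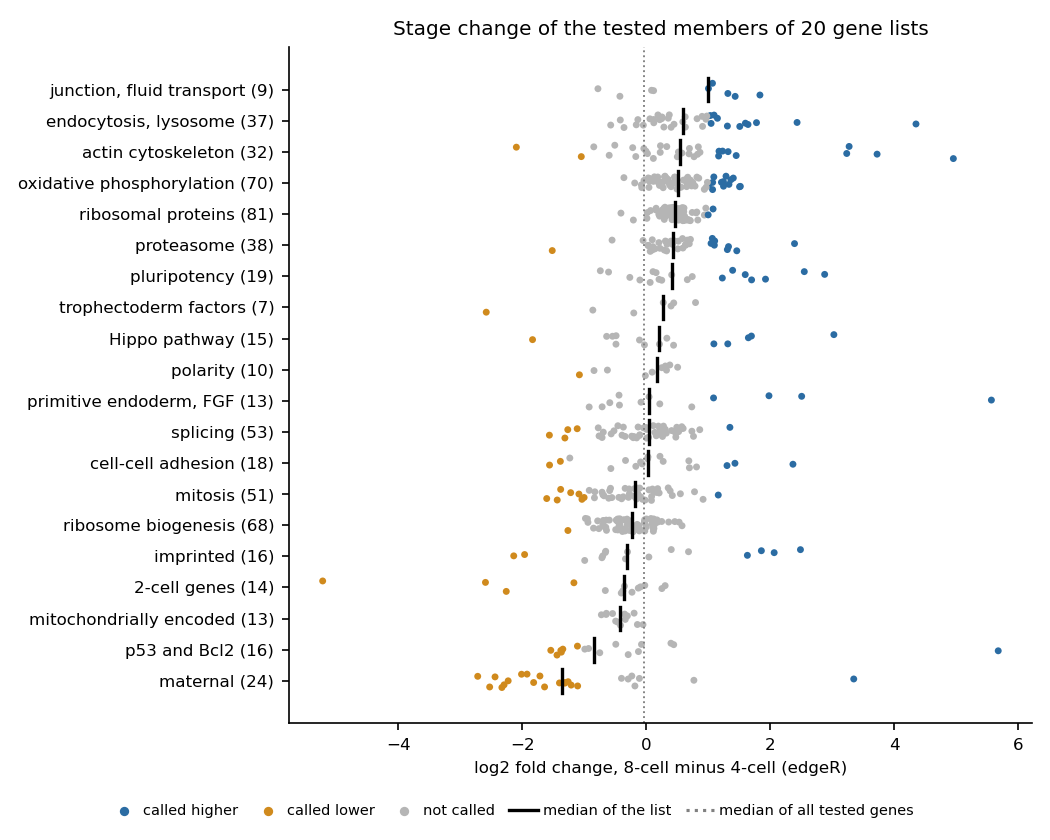
Each row is 1 of 20 gene lists (y), with its number of tested members, and each point 1 member at its log2 fold change, 8-cell minus 4-cell (x). Blue points are called higher, orange lower, grey neither, and the black bar is the median of the list. Junction genes have the highest median (1.01) and maternal genes the lowest (-1.36), and the dotted line is the median of all tested genes (-0.03).

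Messages of the oocyte were the group with the most falls. Of 50 listed maternal genes 24 were tested, 17 fell and 1 rose, with a median log2 fold change of -1.36, against 11.3% called lower over all genes. Omt2a, an oocyte protein, stood at 49.8, 146 and 534 CPM at 4 cells and at 8.97, 18 and 66.5 CPM at 8 cells, with 15 of 16 8-cell libraries under all 4-cell ones (log2 fold change -2.72 ± 0.32, SE, adjusted p = 1.51e-08). Oog1 stood at 11, 40.4 and 118 CPM at 4 cells and at 4.72, 9.02 and 23.7 CPM at 8 cells (log2 fold change -2.01 ± 0.28, SE, adjusted p = 4.53e-07) and Nlrp9c, of the oocyte NLRP family, at 10.5, 27.1 and 59.8 CPM at 4 cells and at 2.52, 7.35 and 13.1 CPM at 8 cells (log2 fold change -1.82 ± 0.23, SE, adjusted p = 9.03e-08). These had already been far higher earlier: Omt2a had a median of 1842 CPM in oocytes and 5336 CPM at 2 cells, and Oog1 of 1969 and 4264 CPM. Btg4, an adaptor of the deadenylase that removes maternal messages, went from a median of 16.5 to 3.38 CPM (log2 fold change -1.64 ± 0.40, SE, adjusted p = 0.0011). The 1 that rose was Khdc3, also called Filia, of the subcortical maternal complex, at 0, 1.49 and 5.80 CPM at 4 cells and at 4.48, 19.1 and 47.9 CPM at 8 cells (log2 fold change 3.35 ± 0.46, SE, adjusted p = 3.09e-07). Such families share sequence and reads, and 71.9% of the Oog1 values were not whole. In the fit that adds the knockout libraries 10 instead of 17 maternal genes fell, and 15 without 8-cell knockout replicate 7.

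Genes of the 2-cell burst fell in 4 of 14 tested members of 34 listed, and none rose (11.3% and 8.95% over all genes). Their median was -0.36. Usp17lb, a deubiquitinase of a multi-copy family, stood at 0, 20.3 and 948 CPM at 4 cells and at 0, 0 and 13.6 CPM at 8 cells (log2 fold change -5.22 ± 0.92, SE, adjusted p = 2.32e-05). Its highest 4-cell value comes from replicate 11, the library farthest from its stage, and without it the log2 fold change of Usp17lb was -4.36 (edgeR adjusted p = 4.36e-05). Arg2, arginase 2, stood at 0, 14.2 and 372 CPM at 4 cells and at 0, 6.27 and 12.6 CPM at 8 cells (log2 fold change -2.59 ± 0.57, SE, adjusted p = 0.000319), with the highest value in the same library, and -1.58 without it (edgeR adjusted p = 0.0037). Pramef25 (-2.26 ± 0.88) lost its call without that library, at -1.21 (edgeR adjusted p = 0.222). Tdpoz4 fell from a median of 54.3 to 25.3 CPM (log2 fold change -1.17 ± 0.25, SE, adjusted p = 0.00026). Zscan4c, a marker of the burst, was too low to test: its median of 395 CPM at 2 cells stood against 0.195 CPM at 4 cells, and it had no counts in any 8-cell library.

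Of the 12 largest falls by the same level limit, Usp17lb and Omt2a are given above. Polr3f, a subunit of RNA polymerase III (chr2:144527718-144541995), stood at 102, 205 and 300.5 CPM at 4 cells and at 9.90, 23.3 and 69.1 CPM at 8 cells, without overlap (log2 fold change -2.73 ± 0.23, SE, adjusted p = 2.32e-11), and Klhl11, an adaptor of a cullin ubiquitin ligase, stood at 19.5, 40.4 and 131 CPM at 4 cells and at 0, 5.47 and 13.6 CPM at 8 cells, without overlap either (log2 fold change -3.29 ± 0.38, SE, adjusted p = 1.48e-08). Rpp25, a subunit of RNase P, stood at 3.8, 54.5 and 123 CPM at 4 cells and at 1.70, 3.93 and 14 CPM at 8 cells, and 8 of 16 8-cell libraries lay under all 4-cell ones (log2 fold change -3.34 ± 0.39, SE, adjusted p = 1.41e-08). Zkscan1 (-2.48 ± 0.26) and Zfp791 (-2.55 ± 0.34), both zinc-finger genes, fell as well. So did Usp29 (-2.69 ± 0.32), a ubiquitin protease gene, Unc13c (-3.18 ± 0.37), and the germline genes Tex15 (-2.46 ± 0.42) and Mael (-2.44 ± 0.48). Oog3 (-2.53 ± 0.47), an oocyte gene, completed them. Polr3f, Klhl11, Rpp25, Zkscan1, Zfp791 and Usp29 had their highest median of the 4 stages at 4 cells.

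Measured by the change in mean CPM among called genes, the largest gain was that of Timd2, a cell surface receptor (chr11:46668960-46707061). It stood at 1561, 4059 and 6403 CPM at 4 cells and at 7789, 11248 and 14515 CPM at 8 cells, without overlap (log2 fold change 1.65 ± 0.16, SE, adjusted p = 6.7e-10). Ube2e3, a ubiquitin-conjugating enzyme, stood at 176, 521 and 873 CPM at 4 cells and at 1098, 1614 and 2417 CPM at 8 cells, and Dnaja1, a co-chaperone of Hsp70, at 1120.2, 1715 and 2226 CPM at 4 cells and at 2293, 3316 and 4463 CPM at 8 cells. Neither overlapped between stages. Trim43a (1.33 ± 0.15) and Trim43b (1.06 ± 0.15) are near-identical paralogues with mostly fractional counts, so how the gain divides between them is uncertain. The largest losses among called genes were those of Obox8 (-1.09 ± 0.16), a homeobox gene, Pank3 (-1.19 ± 0.13), a pantothenate kinase, Bclaf1 (-1.14 ± 0.12), a nuclear RNA-associated protein, Gpbp1 (-1.17 ± 0.16) and Brdt. Brdt, a bromodomain protein of the germline, stood at 300.4, 587 and 1525 CPM at 4 cells and at 68.9, 155 and 239.9 CPM at 8 cells, without overlap (log2 fold change -2.17 ± 0.21, SE, adjusted p = 7.05e-10).

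In the p53 and Bcl2 list 6 of 16 tested genes fell and 1 rose (11.3% and 8.95% over all genes). The median was -0.84. The rise was that of Perp, a p53 target and a tetraspan membrane protein of desmosomes (chr10:18845020-18857073), at 0, 0 and 5.55 CPM at 4 cells and at 5.25, 28.1 and 47.7 CPM at 8 cells. It had no counts in 13 of 16 4-cell libraries, and 15 of 16 8-cell libraries lay above all 4-cell ones (log2 fold change 5.68 ± 0.55, SE, adjusted p = 5.43e-10). Mdm4, a p53 inhibitor (chr1:132959484-133030561), stood at 295, 380.3 and 744 CPM at 4 cells and at 95.9, 143 and 227 CPM at 8 cells, without overlap (log2 fold change -1.44 ± 0.13, SE, adjusted p = 9.33e-11). Most of its loss came earlier, with medians of 3860 CPM in oocytes and 5452 CPM at 2 cells. Bcl2l11, the death-promoting protein Bim, stood at 16.0, 51.0 and 96.7 CPM at 4 cells and at 5.22, 15.8 and 30.0 CPM at 8 cells (log2 fold change -1.54 ± 0.24, SE, adjusted p = 3.24e-06), and Trp53inp1 at 20.1, 125 and 203 CPM at 4 cells and at 5.99, 43.0 and 63.8 CPM at 8 cells (log2 fold change -1.38 ± 0.25, SE, adjusted p = 2.29e-05). Both overlapped between stages. In oocytes and at 2 cells Bcl2l11 had medians of 7.70 and 11.7 CPM, and Trp53inp1 of 220 and 194 CPM. Mdm2 (-1.35 ± 0.26), the ubiquitin ligase of p53, Sesn2 (-1.37 ± 0.34), a stress-induced p53 target, and Trp53 itself (-1.11 ± 0.33) fell too.

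Of 51 tested mitosis genes 7 fell and 1 rose (Spc24, a kinetochore subunit, 1.16 ± 0.33), with a median of -0.19. For this list and for splicing and replication below, the shares over all genes were 11.3% lower and 8.95% higher. Cenpf, a kinetochore protein, stood at 54.3, 91.9 and 214 CPM at 4 cells and at 4.87, 27.8 and 65.7 CPM at 8 cells, with 15 of 16 8-cell libraries under all 4-cell ones (log2 fold change -1.6 ± 0.22, SE, adjusted p = 3.89e-07). Incenp (-1.22 ± 0.19) and Cdca8 (-1.0 ± 0.13), subunits of the chromosomal passenger complex, and Sgol1 (-1.44 ± 0.19), the protector of cohesion, fell as well. Cdca8 lost its call without 4-cell replicate 11. Splicing genes fell in 4 of 53 tested (Srsf11, -1.31 ± 0.11, Prpf4, -1.56 ± 0.18, Snrnp48, -1.26 ± 0.17, and Srsf10, -1.11 ± 0.17) and rose in 1, Srsf9 (1.35 ± 0.21). Replication genes rose in 3 of 47 (Gins1, Rfc4 and Rpa3) and fell in 1 (Gins3). Gins1 stood at 29.9, 131 and 228 CPM at 4 cells and at 235, 269 and 315 CPM at 8 cells, without overlap (log2 fold change 1.11 ± 0.18, SE, adjusted p = 8.12e-06), but lost its call without 4-cell replicates 2, 3 and 11, while Gins3, a subunit of the same helicase complex, stood at 52.0, 127 and 241 CPM at 4 cells and at 23.6, 51.2 and 98.4 CPM at 8 cells (log2 fold change -1.15 ± 0.20, SE, adjusted p = 1.58e-05).

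Among 44 tested chromatin genes 3 rose and 5 fell, near the 8.95% and 11.3% over all genes, with a median of -0.08. Dnmt3l, the cofactor of de novo DNA methylation, stood at 0, 3.54 and 9.60 CPM at 4 cells and at 8.07, 20.1 and 40.8 CPM at 8 cells, and 15 of 16 8-cell libraries lay above all 4-cell ones (log2 fold change 2.39 ± 0.31, SE, adjusted p = 1.54e-07). Dnmt3b (1.10 ± 0.36), a de novo methyltransferase, and Jarid2 (1.35 ± 0.23), a Polycomb cofactor, were the other rises. Ehmt1, the H3K9 methyltransferase GLP, stood at 50.7, 74.4 and 133 CPM at 4 cells and at 13.6, 26.1 and 49.9 CPM at 8 cells, without overlap (log2 fold change -1.41 ± 0.17, SE, adjusted p = 3.11e-08). Suv39h1 (-1.46 ± 0.28), also an H3K9 methyltransferase, Uhrf2 (-2.42 ± 0.41), Sirt1 (-1.20 ± 0.19) and Ezh1 (-1.04 ± 0.31) fell.

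Imprinted genes rose in 4 of 16 tested and fell in 2 (8.95% and 11.3% over all genes). Snrpn, expressed from the paternal allele (chr7:59982495-60140219), stood at 4.14, 29.2 and 71.3 CPM at 4 cells and at 98.5, 203 and 259 CPM at 8 cells, without overlap (log2 fold change 2.49 ± 0.27, SE, adjusted p = 6.16e-09). Sgce, also paternally expressed, stood at 0.583, 16.1 and 30.8 CPM at 4 cells and at 33.0, 56.5 and 102 CPM at 8 cells, without overlap (log2 fold change 2.07 ± 0.25, SE, adjusted p = 3.43e-08). Snhg14, the long RNA that neighbours Snrpn, rose by 1.86 ± 0.23 and the paternally expressed transporter gene Slc38a4 by 1.63 ± 0.50. Mest, paternally expressed too, stood at 3.8, 20.2 and 67.6 CPM at 4 cells and at 0, 4.81 and 11.8 CPM at 8 cells and fell (log2 fold change -2.14 ± 0.40, SE, adjusted p = 4.39e-05), and Cdkn1c, maternally expressed, fell too (-1.96 ± 0.48). Snrpn overlaps Snurf, and 87.5% of its values were not whole, so the reads of the genes cannot be separated here.

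Heat shock and redox genes gave 4 rises and 3 falls among 38 tested, near the 8.95% and 11.3% over all genes. Beside Dnaja1, Prdx6 (1.67 ± 0.17), a peroxiredoxin, Gsr (1.13 ± 0.17), glutathione reductase, and Gstp1 (1.23 ± 0.35) rose. Hsph1 (-1.68 ± 0.19), a co-chaperone of Hsp70, Hspa2 (-1.18 ± 0.44) and Gclc (-2.56 ± 0.44), the catalytic subunit for glutathione synthesis, fell. In energy metabolism, Mpc2 (1.30 ± 0.17), a subunit of the mitochondrial pyruvate carrier, and Dlat (1.16 ± 0.49), of pyruvate dehydrogenase, rose, while Ldhb (-2.20 ± 0.37), lactate dehydrogenase B, and G6pdx (-1.06 ± 0.39), the entry to the pentose phosphate route, fell, of 17 tested. In oocytes and at 2 cells Ldhb had medians of 230 and 803 CPM and G6pdx of 50.4 and 726 CPM. There Dlat had medians of 58.2 and 79.3 CPM and Mpc2 of 7.91 and 26.9 CPM. Dlat and G6pdx lost their calls without 4-cell replicate 11. Among 49 translation initiation and elongation genes 1 was called, Eef1g (1.17 ± 0.19), and the call was lost without 4-cell replicates 2, 3 and 11. In the histone list 1 of 15 tested fell, the linker histone gene H1f0 (-1.31 ± 0.38).

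Xist, the RNA that coats the inactive X chromosome, divided the embryos by their Y-linked transcripts. The 6 Y-linked genes (Ddx3y, Eif2s3y, Uty, Kdm5d, Usp9y and Zfy1) were summed. At 4 cells 12 libraries held Y-linked counts, with a sum of 93.2 to 308 CPM (median 206), and their Xist level was 0 to 3.52 CPM. The other 4, with under 3 Y-linked counts, had Xist at 12.4, 13.3, 46.9 and 129 CPM. At 8 cells 11 libraries held 155 to 343 CPM of Y-linked RNA (median 232) and 0 to 1.80 CPM of Xist, and the other 5 had Xist at 362, 394, 397, 427 and 480.5 CPM. Among libraries with under 3 Y-linked counts every 8-cell value therefore lay above every 4-cell value. These groups were formed from the data and no test was made. None of the 5 tested Y-linked genes was called, and the 4-cell and 8-cell groups held 12 and 11 embryos with Y-linked RNA.

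**Figure D4:**
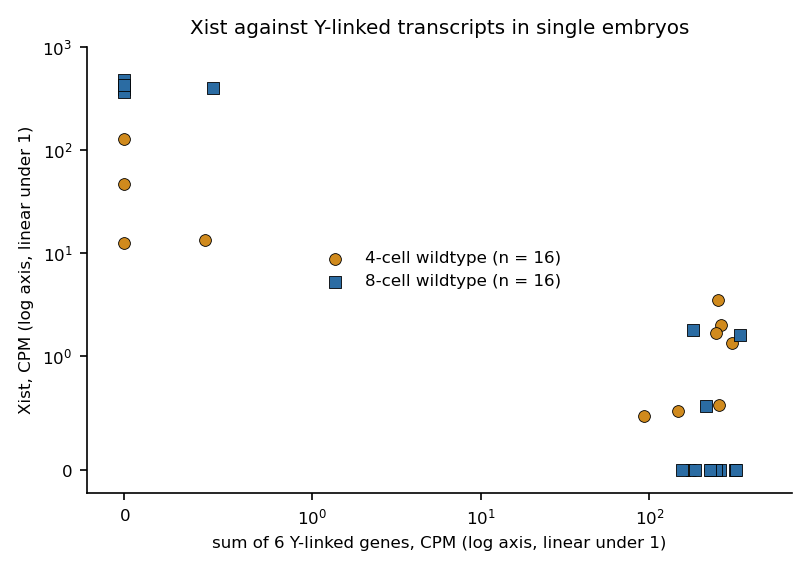
Each point is 1 wildtype library, with the summed CPM of 6 Y-linked genes (x) and the CPM of Xist (y), both on axes that are logarithmic above 1 and linear below. Libraries with Y-linked RNA lie at Xist levels of at most 3.52 CPM, and those without lie at 12.4 to 129 CPM at 4 cells and 362 to 480.5 CPM at 8 cells.

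The step from 4 to 8 cells was set beside the step before it in 1 fit of the 2-cell, 4-cell and 8-cell wildtype libraries, which share the 4-cell group. The contrast of the steps was called in 6390 of 9804 genes (65.2%). The genes below were named for their change from 4 to 8 cells, which is part of this contrast. A difference in them is thus favoured by the choice, and their adjusted p is no independent evidence. Dab2 had medians of 152, 183, 1.50 and 112 CPM in oocytes and at 2, 4 and 8 cells. Its log2 change was -6.52 from 2 to 4 cells, and the steps differed by 12.12 on the log2 scale (adjusted p = 7.07e-20). It was thus nearly absent at 4 cells, between high levels before and after. Cdh1 had medians of 62.6, 7.67, 3.45 and 19.1 CPM, so most of its loss came before 2 cells, and its steps differed too (difference 3.93, adjusted p = 1.12e-07). The steps also differed in Tjp1 (difference 2.86, adjusted p = 7.01e-09) and Tpm4 (difference 6.21, adjusted p = 6.1e-08), both with a lower median at 4 cells than at 2 and at 8 cells. Tdgf1, in contrast, had a log2 change of 4.18 in the step before, and Timd2 of 5.56, so their later change was smaller (differences -1.26 and -3.89). Polr3f had a log2 change of 1.67 in the step before, Gins3 of 5.29 and Pank3 of 2.95, and all 3 were lower again at 8 cells. In Brdt and Unc13c the changes of the steps did not differ detectably, with differences of -0.10 (adjusted p = 0.792) and 0.08 (adjusted p = 0.905).

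**Figure D5:**
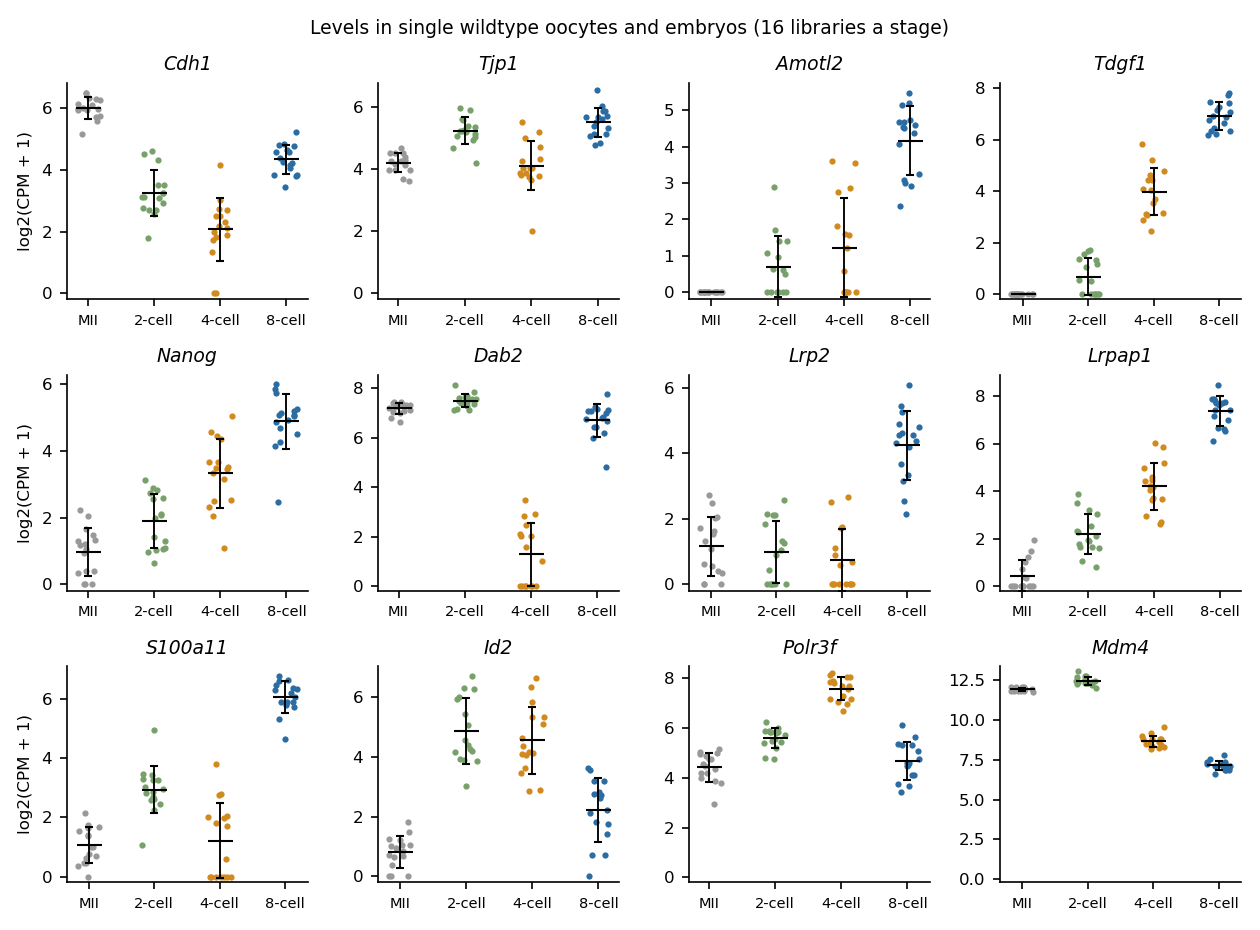
Each panel is 1 of 12 genes, each point 1 of 16 wildtype libraries of a stage, from MII oocytes to 8 cells (x), at log2(CPM + 1) (y), and bars give the mean and SD. Dab2, Lrpap1, S100a11 and Tdgf1 lie higher in every 8-cell library than in any 4-cell library, Polr3f and Mdm4 lie lower, and Dab2 has a median of 183 CPM at 2 cells against 1.50 CPM at 4 cells.

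The same step in knockout embryos shares no library with the wildtype comparison. Kdm4a itself was too low to test. It stood at 0, 3.36 and 11.1 CPM at 4 cells and at 0, 1.59 and 3.40 CPM at 8 cells in wildtype, and had means of 1.76 ± 1.47 CPM (SD, n = 16) and 1.99 ± 2.22 CPM (n = 15) in knockout embryos, against 4.59 ± 3.58 and 1.31 ± 1.16 CPM (n = 16 each) in wildtype. Whether these counts fall inside the deleted part was not examined here. The 8-cell knockout replicate 7 stood apart, with a median Spearman correlation of 0.523 to the others of its group, which had 0.801 to 0.839, and counts in 9638 genes, where they had 12192 to 15431. The knockout results are therefore given with and without it. In knockout embryos 446 of 7408 genes (6.02%) were higher and 242 (3.27%) lower at 8 cells, and without that library 434 and 504 of 7506. Of the 653 genes called higher in wildtype 243 were also called higher in knockout, which is 37.2% of the wildtype and 54.5% of the knockout list, and without the library 284 (43.5% and 65.4%). None was called lower in either form. Of the 825 called lower 131 were also called lower, 15.9% of the wildtype and 54.1% of the knockout list, and without the library 254 (30.8% and 50.4%). The number called higher in knockout was 14, and 2 without the library. The maternal list rests on it: of 29 members tested in knockout embryos 8 were called higher and 0 lower, with a median of 2.10, but without the library 1 was called higher and 17 lower, with a median of -1.85. Oog1 stood at 7923 CPM in that library and at 47.8 CPM or less in the other 14, against a median of 95.1 CPM in 4-cell knockout embryos. Its log2 change without the library was -2.40 (edgeR adjusted p = 3.38e-07). The stage change itself differed between genotypes in 241 of 8822 genes (2.73%), with RLE factors in 484, and without the library in 166 of 8908, of which 101 are among the 241. For Dab2, S100a11, Perp, Cdh1 and Tdgf1 that difference did not pass the test (edgeR adjusted p = 0.6, 0.276, 0.496, 0.743 and 0.955).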

How the data were processed

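Single embryos were sequenced as amplified polyA RNA, 1 embryo a library. Per the submitters' processing notes, reads went through Trimmomatic 0.32, STAR 2.5.1a and featureCounts 1.5.1 on mm10; the strand and multi-mapping options are not known here. The deposited table holds the authors' estimated counts per gene: 31.6% of nonzero values in the 32 libraries were not whole (tolerance 1e-09), so all were rounded. The table has 41300 genes; 7297 passed filterByExpr. A library under 100000 counts was left out (1 knockout 8-cell embryo). edgeR 4.0.16 (R 4.3.3; TMM factors, robust quasi-likelihood test) was fitted to the 32 wildtype libraries, to the knockout libraries, to both together for the difference between genotypes, and to 2-, 4- and 8-cell wildtype libraries for the difference between steps, with Benjamini-Hochberg adjustment over all genes tested. The test was checked on simulated counts. CPM is rounded counts over the library total. Shares of counts were compared by 2-sided permutation tests (scipy 1.17.1, 100000 resamples), adjusted over 4 measures. Gene positions are from GENCODE on mm10.

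Genes named are the 12 each way with the largest fold change among calls of at least 50 CPM, the 5 each way with the largest difference in CPM, and up to 4 called members of each list with the smallest p (2 by level where none was called); other genes complete a short count or were chosen after their values were seen. The lists were chosen with earlier results of these data known. The comparison was taken up with those results known too, but which libraries belong to it was set by their labels. Replicate numbers did not pair the samples: same-numbered libraries of the 2 stages had correlations of -0.119 to 0.134 and 2 of 16 pairs were over 0.1. No pair of libraries within a stage differed by less than sampling noise (chi-square per gene at least 10.2 over 240 pairs). DESeq2 1.42.0, limma 3.58.1 (voom), other scalings, filters and left-out libraries were alternatives. Some list members that were tested and counted are not reported here by name.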

Additional observations from a re-analysis of the deposited data

Results flagged for a closer look

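In 17 of the genes named by the selection rules above, the change from 4 to 8 cells differed between wildtype and knockout embryos, by the edgeR test of that difference. Over all genes it differed in 241 of 8822 (2.73%). Most of the named genes were chosen for their wildtype change, which enters this test, so the count of 17 is favoured by the choice. Values are the knockout log2 change minus the wildtype log2 change with the adjusted p over 8822 genes, followed by both without 8-cell knockout replicate 7, the library that stood apart. In 4 genes the difference rested on that library: Oog1 (5.09, adjusted p = 0.00579, and -0.40, 0.71), Omt2a (4.99, adjusted p = 0.00634, and -0.11, 0.959), Nlrp9c (3.74, adjusted p = 0.0127, and -0.30, 0.782) and Unc13c (3.22, adjusted p = 0.0237, and 0.08, 0.969). Omt2a stood at 9599 CPM in that library and at a median of 22.7 CPM in the others, against a median of 185 CPM in 4-cell knockout embryos. Unc13c stood at 4397 CPM in that library and at a median of 49.7 CPM in the others, against a median of 491 CPM in 4-cell knockout embryos. The difference kept its sign but not its call without the library in H1f0 (2.90, adjusted p = 0.00835, and 1.80, 0.062), Hsd17b7 (2.25, adjusted p = 0.0494, and 1.75, 0.141), Mest (2.99, adjusted p = 0.0166, and 2.14, 0.0809) and Tex15 (2.52, adjusted p = 0.0132, and 1.82, 0.0598). It passed the test in both forms, with a positive sign, in Arg2 (3.08, adjusted p = 0.0194, and 3.18, 0.0186), Hsph1 (0.95, adjusted p = 0.0417, and 0.99, 0.0374), Rpp25 (2.26, adjusted p = 0.0462, and 2.36, 0.039) and Zfp791 (1.82, adjusted p = 0.0396, and 1.91, 0.0223), and with a negative sign in Lamp1 (-1.17, adjusted p = 0.0492, and -1.08, 0.0366), Snhg14 (-2.01, adjusted p = 0.000477, and -1.94, 0.000303), Snrpn (-2.15, adjusted p = 4.65e-05, and -2.11, 4.32e-05), Stk4 (-1.17, adjusted p = 0.0319, and -1.14, 0.045) and Ube2e3 (-1.70, adjusted p = 4.65e-05, and -1.62, 7.9e-06). Wildtype 4-cell replicate 11 was kept in both forms. The wildtype log2 change of Arg2 was -2.59 with it and -1.58 without it. The causes were not tested.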

How the results depend on the processing

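With the replicate number as a block, 768 genes were higher and 736 lower in wildtype, within 1.5 times of 653 and 825, while 192 instead of 446 were higher in knockout and 34 instead of 241 differed between genotypes; the numbers pair no samples (knockout correlations -0.358 to 0.166). Without a filter on low counts 1923 genes were higher and 2884 lower, against a log2 fold change of 1 (glmTreat) 195 and 175, and without a fold threshold 1697 and 1830. RLE factors gave 484 differences between genotypes. Without 8-cell knockout replicate 7, also left out after seeing the data, 504 instead of 242 genes were lower in knockout. The cause was not tested. DESeq2 shared 650 of the higher and 815 of the lower calls, replicates 1 to 8 alone 468 and 539, and replicates 9 to 16 alone 487 and 548. Without 4-cell replicate 11 there were 686 and 814 calls, and without 4-cell replicates 2, 3 and 11, chosen after seeing the data, 670 and 720. Of the 120 named genes 119 kept their call side with DESeq2, 110 with library totals and 67 with glmTreat. No named gene called in wildtype reversed its direction under these alternatives. Some list medians near 0 changed sign with library totals, such as adhesion (0.03 to -0.08) and primitive endoderm and FGF (0.05 to -0.04). The maternal list in knockout embryos and the genotype differences of Oog1, Omt2a and Nlrp9c changed sign without 8-cell knockout replicate 7. Genes of a few CPM, such as Pou5f1 and Cdx2, rest on few counts. The part of depth and of the unknown multi-mapping options in their low levels was not tested.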
